A study of Mus musculus with 3 samples.

Results

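The Hox cluster genes encode the homeodomain transcription factors that give cells their position along the head-to-tail axis. They were chosen by symbol: every protein-coding gene named Hoxa, Hoxb, Hoxc or Hoxd followed by a number from 1 to 13. All 39 such genes were found among the 21887 protein-coding genes placed on chromosomes of the mouse assembly GRCm38. They lie in 4 clusters, with 11 genes in Hoxa, 10 in Hoxb, 9 in Hoxc and 9 in Hoxd. The series mapped where HDAC3 and KLF4 sit on chromatin by immunoprecipitation and sequencing (ChIP-seq) of dorsal epidermis from wild-type mouse embryos at E18.5. One library had been precipitated with an HDAC3 antibody (Abcam ab7030), 1 with a KLF4 antibody (R&D AF3158), and 1 was input chromatin without antibody. The labels do not say how many embryos gave each library. The 56787485 HDAC3 tags gave 57936 deposited peaks and the 61432711 KLF4 tags gave 47155. Since each antibody had a single library, nothing could be tested against the spread between replicates, and intervals cover counting error only.

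Hox genes of the same number in different clusters descend from one ancestral gene and form a paralogue group. Within a cluster the order of the genes matches the order of the body regions in which they act, with low numbers towards the head and high numbers towards the tail. Polycomb and trithorax complexes maintain the silent and active states of the clusters, and skin cells keep regional Hox patterns after birth. HDAC3 is a histone deacetylase that works in NCoR/SMRT corepressor complexes. KLF4 is a zinc finger factor needed to form the skin barrier. The peak lists show binding, not transcription, so which Hox genes were active in this epidermis, and the level of any marker of a cell type, was not measured here. Of 10 keratinocyte marker genes, 2 carried an HDAC3 peak and 4 a KLF4 peak at a gene end, and of 6 dermal fibroblast markers 3 and 1 did. Of 4 melanocyte markers 1 and 2 did, and none of 3 Merkel cell or 3 Langerhans and T cell markers did for either factor. Over all protein-coding genes, 18.9% had an HDAC3 and 23.1% a KLF4 peak within 1 kb of an end. Lists of 3 to 10 genes are too short to be set apart from these shares, and no difference was tested.

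At their ends, Hox genes carried HDAC3 about as often as other genes did and KLF4 in a smaller share, without a test of the difference. A gene counted if the middle of a peak was no more than 1 kb from one of its annotated ends. HDAC3 did so at 8 of 39 Hox genes (20.5%), against 18.9% of all protein-coding genes, a share near the background. KLF4 did so at 5 of 39 (12.8%), against 23.1% of all protein-coding genes. Both factors were found at 2 Hox genes, Hoxb1 and Hoxc13, against 10.3% of protein-coding genes with both. The genes with HDAC3 included Hoxa5, Hoxa6, Hoxa9, Hoxb1, Hoxb2, Hoxc13 and Hoxd1, of which Hoxa5 and Hoxa6 are neighbours that shared 1 peak. The 5 genes with KLF4 were Hoxa7, Hoxb1, Hoxb6, Hoxb9 and Hoxc13, and the other 28 genes had neither factor at an end. At least 1 of the factors was thus at 11 of 39 (28.2%), against 31.7% of all protein-coding genes.

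The count of Hox genes with a gene-end peak depended on the distance allowed. Within 5 kb of an end, HDAC3 reached 20 Hox genes and KLF4 reached 16, beside 46.2% and 46% of all protein-coding genes. Just beyond 1 kb lay an overlapping pair 1054 bp (HDAC3) and 1063 bp (KLF4) outside Hoxa9. When every peak was instead given to the protein-coding gene whose span was nearest, 18 Hox genes received an HDAC3 peak and 15 a KLF4 peak. Of all protein-coding genes, 64.1% received an HDAC3 peak and 58.8% a KLF4 peak in this way. Hox genes are short, with a median of 3737 bp against 17169 bp for all protein-coding genes, and lie close together, so less sequence is nearest to each. The part of gene spacing in these lower shares was not tested.

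**Figure D1:**
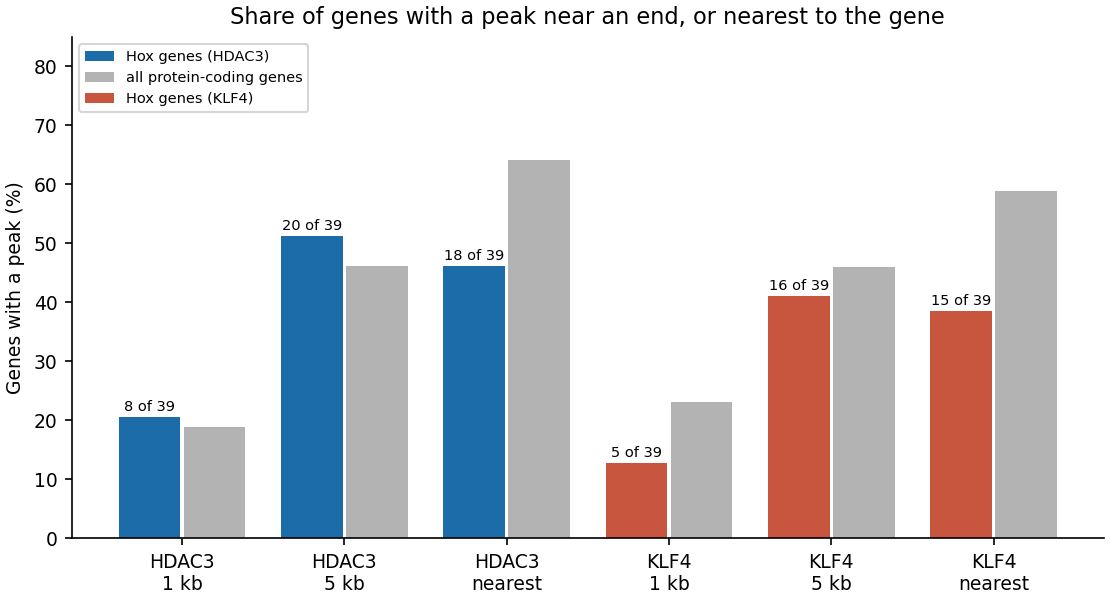
Percentage of genes with a peak centre within 1 kb or 5 kb of an end, or with a peak nearest to the gene, for the 39 Hox genes (coloured bars, with counts) and all 21887 protein-coding genes (grey bars). The KLF4 bars of the Hox genes are lower than the grey bars at all 3 settings, from 12.8% against 23.1% within 1 kb, while the HDAC3 bars are above grey at 1 kb (20.5% against 18.9%) and 5 kb and below it for the nearest gene.

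Per base of cluster, peaks of either factor were somewhat denser than over gene spans in general, with wide intervals. Between the first and last annotated bases of their members, the 4 clusters span 492 kb and held 22 HDAC3 peaks and 17 KLF4 peaks. That is 4.47 HDAC3 peaks per 100 kb (exact Poisson interval at 95%, 2.80 to 6.77), against 2.79 per 100 kb over the spans of all protein-coding genes. For KLF4 it is 3.45 per 100 kb (2.01 to 5.53), against 2.35, a value that the interval includes. The clusters include sequence between genes, which the gene spans leave out, so the 2 kinds of region are not alike. A further 22 HDAC3 peaks and 7 KLF4 peaks lay outside the clusters with a Hox gene as the nearest protein-coding gene. This gave 44 HDAC3 and 24 KLF4 peaks assigned to Hox genes.

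The clusters differed in their number of peaks. Hoxa, on chromosome 6, held 8 HDAC3 and 5 KLF4 peaks. Hoxb, at chromosome 11, 96194316 to 96368254, held 7 and 6. Hoxc, at chromosome 15, 102921131 to 103036856, held 3 and 4, but another 12 HDAC3 peaks lay outside it. Hoxd, at chromosome 2, 74668225 to 74765142, held 4 and 2. Per 100 kb of cluster, HDAC3 ran from 2.59 peaks in Hoxc to 7.58 in Hoxa, and KLF4 from 2.06 in Hoxd to 4.74 in Hoxa. These rates rest on 2 to 8 peaks each.

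**Figure D2:**
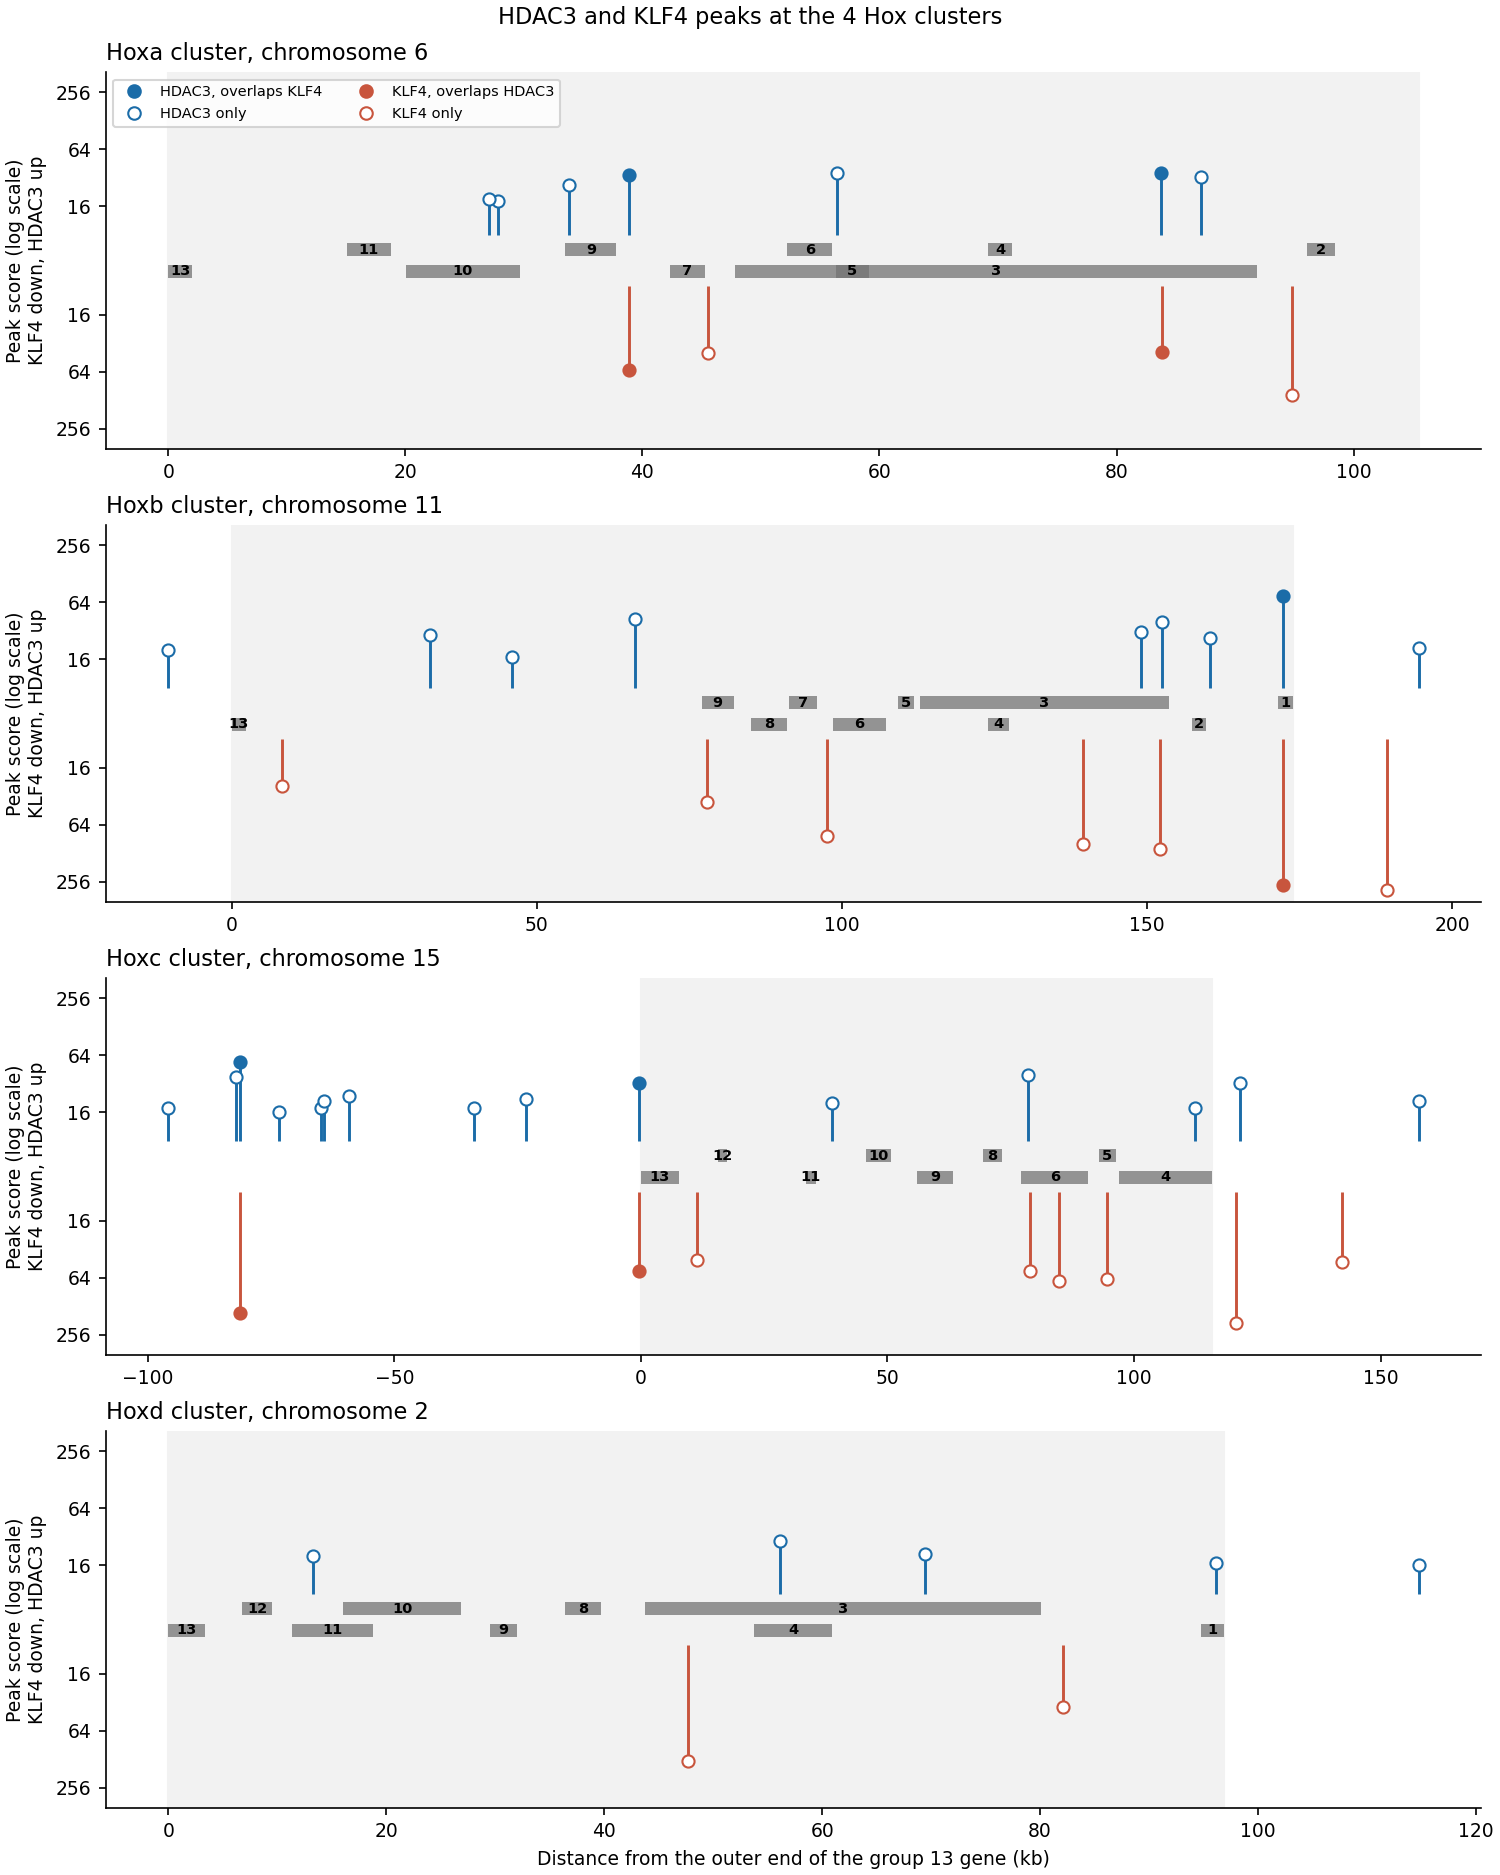
Positions and scores of the HDAC3 peaks (upward) and KLF4 peaks (downward) of the Hox genes shown, against the distance in kb from the outer end of the group 13 gene, with scores on a log scale. Grey bars are genes with their paralogue number, shading is the cluster, and filled points overlap a peak of the other factor; the tallest pair inside a cluster is at Hoxb1.

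Peaks inside the clusters were spread over the ranks of their own lists. The score, a value given to each peak by the authors' caller, served only to rank peaks within a list. Inside the clusters HDAC3 scores ran from 17 to 75 with a median of 29, against 22 for the whole HDAC3 list, and 14 of 22 lay above the list median. KLF4 scores ran from 25 to 275 with a median of 62, against 65 for the whole KLF4 list, and 8 of 17 lay above it. Each list had 1 peak inside the clusters that ranked in the top 10% of its list, and both of these were at Hoxb1. At 1 of 22 and 1 of 17, these counts are too small to be set apart from 10%. The peaks inside held 21 to 92 HDAC3 tags (median 35) and 24 to 288 KLF4 tags (median 58), beside medians of 3 and 4 input tags. At such numbers the enrichment of a single peak was imprecise. In the fold over input, ChIP tags are scaled to the input library, by 0.489 for HDAC3 and 0.4525 for KLF4. The fold is therefore lower than the plain ratio of the tag and input numbers given here and below. The authors' caller kept a peak only at 4-fold or more over input. The exact interval on the fold stayed above 4 for 1 of 22 HDAC3 and 3 of 17 KLF4 peaks inside the clusters.

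**Figure D3:**
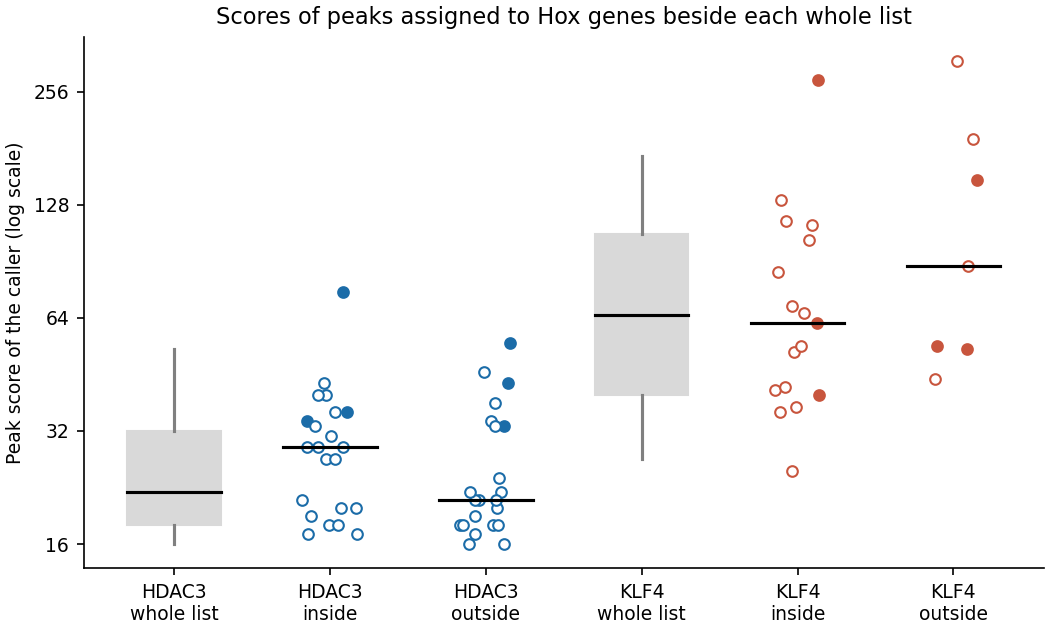
Scores (log scale) of peaks assigned to Hox genes, inside and outside the clusters, beside each whole list (box, 25th to 75th percentile; whiskers, to the outer 10% on either side; black lines, medians). Filled points overlap a peak of the other factor, and the highest point inside the clusters is at Hoxb1 for either factor (75 for HDAC3, 275 for KLF4).

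The highest-scored peaks inside a cluster were at Hoxb1, a gene of hindbrain patterning at the head-side end of Hoxb. The HDAC3 peak, at chromosome 11, 96366528 to 96366712, had a score of 75 and lay 874 bp from the nearer gene end, within the gene. It held 92 tags (Poisson interval 74.2 to 113) beside 5 input tags and was 9-fold over input (exact interval 3.72 to 28.4). The KLF4 peak, at 96366545 to 96366729, had a score of 275 and its centre was 17 bp away. It held 288 tags (255.7 to 323.3) and was 26.1-fold over input (11.04 to 80.9). In their lists, 3.92% of HDAC3 peaks and 2.99% of KLF4 peaks scored as high or higher.

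Hoxb1 was also the nearest gene of the highest KLF4 peak assigned to any Hox gene. That peak lay 15350 bp beyond the gene on the side away from the cluster, at chromosome 11, 96383512 to 96383696. Its score was 309, with 337 tags, and it was 13.98-fold over input (7.72 to 28.3). No HDAC3 peak overlapped it, and the closest was 5261 bp away with a score of 21. Within Hoxb1 the peaks of the factors coincided, and beyond it the highest KLF4 peak stood alone.

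Further in from Hoxb1, the neighbouring genes carried peaks of lower score. An HDAC3 peak of score 27 lay 532 bp outside Hoxb2, also a hindbrain gene, on the side facing Hoxb1. Hoxb3, whose annotated span of 40830 bp encloses Hoxb4, held 2 peaks of each factor. Its KLF4 peak of score 116, at 96346268 to 96346452, was 26.9-fold over input (7.29 to 225), and an HDAC3 peak of score 40 was centred 341 bp from it without overlap. The other KLF4 peak of Hoxb3 had a score of 103 and lay 12182 bp from Hoxb4.

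The middle of Hoxb was bare of HDAC3. From Hoxb8 to Hoxb5 no HDAC3 peak was nearest to any gene, and KLF4 had 1 peak, of score 85, 916 bp outside Hoxb6 (12.7-fold over input, 4.19 to 62.7). Towards the tail-side end, a KLF4 peak of score 37 lay 887 bp inside Hoxb9. The long gap between Hoxb9 and Hoxb13 held 3 HDAC3 peaks of scores 43, 17 and 29 that were at least 11736 bp from any KLF4 peak. The first of these, at 96260389 to 96260573, was the second-ranked HDAC3 peak inside the clusters, 10849 bp outside Hoxb9, and was 4.80-fold over input (1.92 to 15.4). Hoxb13, the outermost gene of the cluster, had a KLF4 peak of score 25 at 5992 bp.

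In Hoxa the factors met at Hoxa3 and near Hoxa9. Hoxa3 has an annotated span of 44009 bp that encloses Hoxa4, Hoxa5 and Hoxa6. Within it, 7960 bp from the nearer end, a KLF4 peak of score 40 lay at chromosome 6, 52176927 to 52177111, and was 8.82-fold over input (2.28 to 75.4). The HDAC3 peak at 52177067 to 52177251 had a score of 36 and was 23.5-fold over input (4.02 to 947), the highest fold of any HDAC3 peak inside the clusters, but beside a single input tag. The centres were 140 bp apart, so the peaks shared 45 bases. The pair outside Hoxa9, a gene also studied for its part in leukaemia, was centred 9 bp apart, with scores of 34 for HDAC3 and 62 for KLF4, and folds of 12.2 (3.21 to 104) and 13.1 (3.47 to 111).

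The RefSeq promoter table, which holds 250 bases before to 50 bases after a start, covered 4 of the assigned peaks in whole or part. The shared site inside Hoxa3 lies just before the start of a noncoding gene, 5730596B20Rik, and is shown because it is the only shared Hox site whose sequence was at hand. The window is chr6:52176905-52177204 on the plus strand (GRCm38.p6). Capitals mark bases 163 to 207, the 45 bases covered by both the HDAC3 and the KLF4 peak:
5730596B20Rik: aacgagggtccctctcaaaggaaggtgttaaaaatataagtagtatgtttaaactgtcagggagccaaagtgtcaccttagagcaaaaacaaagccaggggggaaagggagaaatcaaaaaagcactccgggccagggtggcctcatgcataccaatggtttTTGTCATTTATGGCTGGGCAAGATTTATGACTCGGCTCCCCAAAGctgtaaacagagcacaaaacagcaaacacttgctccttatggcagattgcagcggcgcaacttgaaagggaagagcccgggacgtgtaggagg
The letters TTTATG, which form the core of sites of tail-side Hox and Cdx proteins, occur in the capitals at bases 169 to 174 and 186 to 191. They were looked for after the sequence had been seen. Of all 32851 promoter windows of this length, 11.9% held them on either strand and 1.27% held them 2 or more times. The letters GGGNGTGG, a KLF-type motif, and GGGCGG, a GC box, were not in this window. CCAAT, found in 37.4% of all promoter windows, occurred at bases 153 to 157, inside the KLF4 peak but outside the capitals.

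The HDAC3 peak at Hoxa5, which encodes a factor needed for lung and trunk development, ends a few bases inside the annotated start of the gene. It lay at 52204401 to 52204585, had a score of 36 and was 5.38-fold over input (1.96 to 20.6), with the nearest KLF4 peak 10835 bp away. In the Hoxa5 promoter, chr6:52204538-52204837 on the minus strand (GRCm38.p6), capitals mark bases 253 to 300, the 48 bases inside the HDAC3 peak:
Hoxa5: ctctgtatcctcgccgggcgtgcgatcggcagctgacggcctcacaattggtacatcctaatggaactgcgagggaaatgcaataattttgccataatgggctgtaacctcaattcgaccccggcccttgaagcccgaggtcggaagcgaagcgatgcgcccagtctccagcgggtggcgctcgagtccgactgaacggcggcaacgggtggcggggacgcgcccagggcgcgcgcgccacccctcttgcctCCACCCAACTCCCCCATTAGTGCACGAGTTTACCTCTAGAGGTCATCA
Of the 5 motifs searched, CCAAT alone occurred in the Hoxa5 window, outside the peak. The window has a GC content of 61.7%. The same peak is centred 365 bp from the nearer end of Hoxa6.

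The only KLF4 gene-end peak in Hoxa lay 295 bp outside Hoxa7, at 52215236 to 52215420, with a score of 41 and 4.86-fold over input (1.77 to 18.7). It sits at the start of the noncoding gene Mira, between Hoxa6 and Hoxa7. In the Mira window, chr6:52215239-52215538 on the minus strand (GRCm38.p6), capitals mark bases 119 to 300, the 182 bases inside the KLF4 peak:
Mira: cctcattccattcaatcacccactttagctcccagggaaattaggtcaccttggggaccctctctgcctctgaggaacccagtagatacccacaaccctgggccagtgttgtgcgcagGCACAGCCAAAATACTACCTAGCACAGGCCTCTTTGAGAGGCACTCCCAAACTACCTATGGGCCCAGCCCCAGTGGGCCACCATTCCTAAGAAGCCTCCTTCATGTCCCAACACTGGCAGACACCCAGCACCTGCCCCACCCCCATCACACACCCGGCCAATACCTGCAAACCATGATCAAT
A match to GGGNGTGG stood on the opposite strand at bases 255 to 262, within the peak. These letters occurred in 17.6% of all promoter windows, in 19.4% of those of protein-coding genes and in 25% of the 24 windows of the 22 Hox genes in the table. CCAAT occurred in the Mira window at bases 276 to 280, also within the peak.

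The Hox promoters in the table were mostly those of Hoxa (10 windows) and Hoxd (10), with 3 of Hoxb and 1 of Hoxc. These windows were close to other promoters in composition. Their median GC content was 57.7% against 56.3% for protein-coding genes, and the median ratio of observed to expected CpG was 0.626 against 0.567. GGGCGG occurred in 41.7% of the Hox windows against 46.2%, TGANTCA, the AP-1 motif, in 4.17% against 6.99%, and TAATTA, a homeodomain motif, in 8.33% against 4.53%. CCAAT occurred in 62.5% against 38.2%, and none of these differences was tested. All motifs were searched on both strands; GGGNGTGG and GGGCGG can overlap.

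Hoxa2, the gene of the second branchial arch, had no HDAC3 peak but a KLF4 peak of score 113 at 1229 bp outside it (4.56-fold, 2.46 to 9.41; 111 tags beside 11 of input). Hoxa10 held 2 HDAC3 peaks of low scores, 18 and 19, and no KLF4 peak. Neither factor had a peak nearest to Hoxa11 or Hoxa13, genes of limb and urogenital patterning; the closest HDAC3 and KLF4 peaks to an end of Hoxa13 were 25059 and 36819 bp away.

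In Hoxc most of the HDAC3 peaks lay beyond Hoxc13, a gene known for its role in hair and nail keratin expression. Hoxc13 was the nearest gene of 10 HDAC3 and 3 KLF4 peaks, the most HDAC3 peaks of any Hox gene. Its end carried an overlapping pair 404 bp (HDAC3, score 33) and 305 bp (KLF4, score 54) outside the gene, with modest folds of 4.28 (1.53 to 16.6) and 4.80 (1.93 to 15.4). The higher pair lay 81226 bp away, at chromosome 15, 102839813 to 102839997 for HDAC3 (score 55, 9.62-fold, 3.14 to 48.0) and 102839773 to 102839957 for KLF4 (score 149, 23.5-fold, 7.90 to 115). Their centres were 40 bp apart. An additional HDAC3 peak, of score 38, lay 763 bp from that KLF4 peak. The other 7 HDAC3 peaks of this flank scored 16 to 24 and were 7790 bp or more from a KLF4 peak.

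Within Hoxc, peaks gathered at Hoxc6, a gene of the thoracic region, and its neighbour Hoxc5. Hoxc6 held an HDAC3 peak of score 40 (6.85-fold, 2.19 to 34.6), and a KLF4 peak of score 54 was centred 341 bp from it. A second KLF4 peak in Hoxc6 had a score of 69, and 1 in Hoxc5 had a score of 66. Hoxc4 held an HDAC3 peak of score 18. Outside the cluster, 4958 bp from Hoxc4, a KLF4 peak of score 192, at 103041722 to 103041906, was 18.2-fold over input (7.67 to 56.6) and had an HDAC3 peak of score 33 at 768 bp. Farther out on that side lay a KLF4 peak of score 44 and an HDAC3 peak of score 21, and a KLF4 peak of score 42 lay between Hoxc13 and Hoxc12. Hoxc8, Hoxc9, Hoxc10 and Hoxc12 had no peak of either factor, and Hoxc11 had a single HDAC3 peak of score 20.

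Hoxd was the sparsest cluster for KLF4, with no gene-end peak. Hoxd3, a gene of the neck region, held a KLF4 peak of score 132 at chromosome 2, 74715794 to 74715978, with 125 tags and 6.33-fold over input (3.23 to 14.2). The other KLF4 peak, of score 36, lay 2081 bp outside Hoxd3. An HDAC3 peak of score 29 lay where the spans of Hoxd3 and Hoxd4 overlap, 8480 bp from KLF4, and 1 of score 21 lay elsewhere in Hoxd3. Hoxd1 had an HDAC3 peak of score 17, close to the lowest score in the list (16), 787 bp inside it, and 1 of score 16 outside the cluster. Hoxd11, a limb gene, had an HDAC3 peak of score 20. No peak was nearest to Hoxd8, Hoxd9, Hoxd10, Hoxd12 or Hoxd13, and no HDAC3 peak in Hoxd overlapped a KLF4 peak.

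The share of peaks at which the factors coincided was lower at Hox genes than over the whole lists, but the intervals include the values of the lists. Inside the clusters 3 of 22 HDAC3 peaks (13.6%, exact Clopper-Pearson interval at 95%, 2.91 to 34.9) shared at least 1 bp with a KLF4 peak, against 25.8% of all HDAC3 peaks. Seen from KLF4, 3 of 17 peaks (17.6%, 3.80 to 43.4) overlapped an HDAC3 peak, against 31.7% of the list. The 3 pairs were those at Hoxa3, Hoxa9 and Hoxb1. Over all assigned peaks, 6 of 44 HDAC3 peaks (13.6%, 5.17 to 27.4) and 6 of 24 KLF4 peaks (25%, 9.77 to 46.7) overlapped. Of the 22 HDAC3 peaks inside, 17 had no KLF4 peak within 1 kb, and over all 22 the median distance to one was 8443.5 bp. No whole-list value at that distance was set beside these, so they do not show a trait particular to Hox genes.

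**Figure D4:**
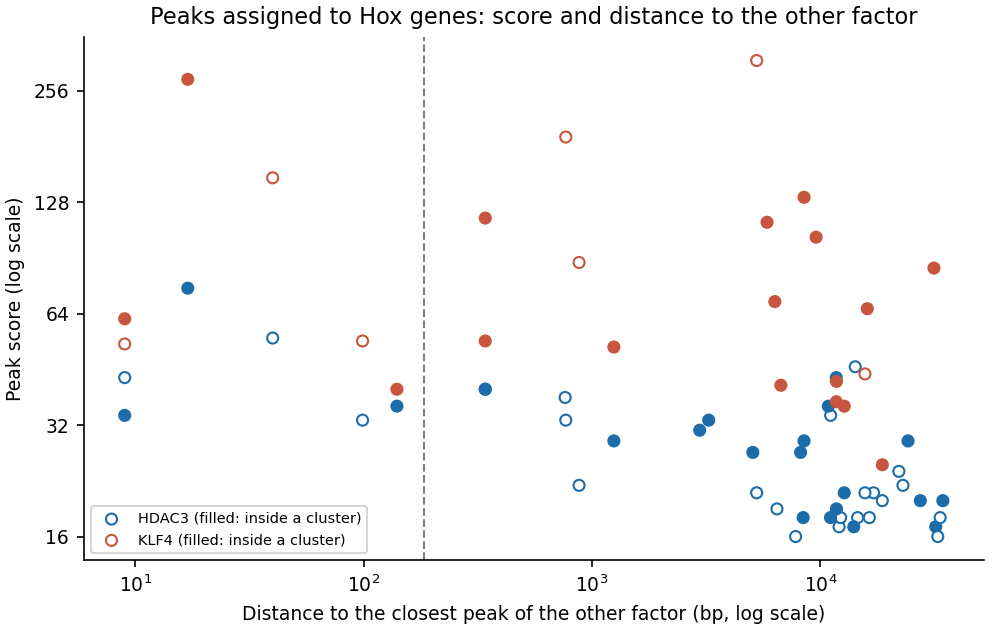
Score against distance to the closest peak of the other factor, both on log scales, for all peaks assigned to Hox genes; filled points lie inside a cluster and the dashed line marks the distance below which peaks overlap. The HDAC3 peak of score 75 at Hoxb1 is left of the line, whereas the highest KLF4 peak, of score 309, lies 5261 bp from HDAC3.

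The order of the paralogue groups depended on how peaks were counted, and no difference between them was tested. By nearest gene, the head-side genes had higher shares than the other groups. Of all protein-coding genes, 64.1% were nearest to an HDAC3 peak and 58.8% to a KLF4 peak. The head-side KLF4 share, 7 of 12, was near that value. Of the 12 genes of groups 1 to 4, 9 had an HDAC3 peak nearest to them and 7 a KLF4 peak, and 2 had neither. Of the 11 genes of groups 5 to 8, these counts were 2, 4 and 6, and of the 16 genes of groups 9 to 13 they were 7, 4 and 9. By gene-end peaks, HDAC3 was at 4, 2 and 2 genes of these classes and KLF4 at 1, 2 and 2. In all, 17 of the 39 had neither, against 26.6% of all protein-coding genes. All 3 genes of group 3 were nearest to peaks of both factors, but none had a gene-end peak. Their annotated spans are long, with 44009 bp for Hoxa3, 40830 bp for Hoxb3 and 36279 bp for Hoxd3, and any peak inside a span counts as nearest. Neither group 8 nor group 12 had a peak.

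The amount of sequence nearest to each class differed as well. Bases nearest to groups 1 to 4 summed to 403 kb, to groups 5 to 8 only 79.6 kb, and to groups 9 to 13 367 kb. Per 100 kb of such bases, HDAC3 had 5.71 peaks (3.62 to 8.56) in the first class, 2.51 (0.304 to 9.08) in the second and 5.44 (3.32 to 8.41) in the third. KLF4 had 3.23 (1.72 to 5.52), 6.28 (2.04 to 14.7) and 1.63 (0.599 to 3.55). The intervals overlapped among the 3 classes for either factor.

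**Figure D5:**
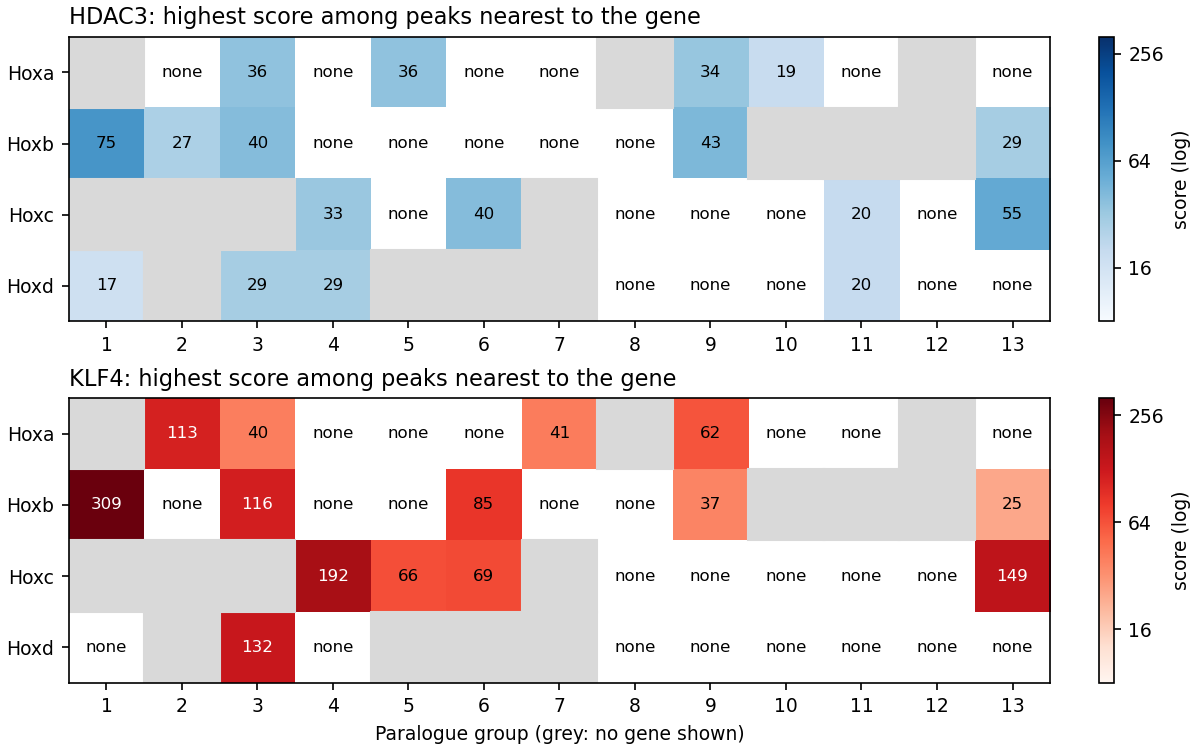
Highest score among the peaks nearest to each Hox gene, by cluster and paralogue group, with colour on a log scale; grey squares show no gene and "none" marks a gene with no peak nearest to it. KLF4 scores above 100 are found at Hoxa2, Hoxb1, Hoxb3, Hoxc4, Hoxc13 and Hoxd3, and the HDAC3 row of Hoxb runs from 75 at Hoxb1 to none from Hoxb4 to Hoxb8.

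Genes that work with the Hox genes were described from lists, beside gene-end shares over all protein-coding genes of 18.9% for HDAC3 and 23.1% for KLF4. With lists this short, a count of 0 is not set apart from those shares. None of 9 TALE cofactor genes, whose Pbx and Meis products bind DNA together with Hox proteins, had a gene-end peak of either factor. By nearest gene, 7 of the 9 received HDAC3 and 7 KLF4 peaks, beside 64.1% and 58.8% of all protein-coding genes. Meis1 alone was nearest to 24 HDAC3 and 20 KLF4 peaks, but such counts depend on how much sequence is nearest to a gene. Jarid2, of the Polycomb list, was nearest to 40 and 39. None of 6 ParaHox and Cdx genes, relatives and activators of the Hox genes, had a gene-end peak. Of 12 retinoic acid genes, which set Hox expression in the embryo, 1 had an HDAC3 gene-end peak (Aldh1a2, score 18) and none had KLF4.

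Of 31 Polycomb genes, 8 (25.8%) had an HDAC3 and 11 (35.5%) a KLF4 gene-end peak, 6 of them both. Ordered by KLF4 score, the first were Epop, with 81 for HDAC3 and 286 for KLF4, then Aebp2 (40 and 138), Phc1 (52 and 95) and Pcgf2 (68 and 86). By HDAC3 score the order was Epop, Pcgf2, Phc1 and Pcgf3 (44). Of 14 trithorax and demethylase genes, 5 (35.7%) had HDAC3 and 5 had KLF4, led by the histone methyltransferase gene Kmt2b (72 and 179) and by Men1 (43 and 82). Of 22 other homeobox genes of skin and limb, 3 had HDAC3 and 5 had KLF4 at an end, among them Dlx5 (49 and 194) and Irx3 (51 and 92).

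The keratin clusters share chromosomes 11 and 15 with Hoxb and Hoxc and served as a comparison without a test. Of 25 type I keratin genes, 10 (40%) had a KLF4 gene-end peak and 7 (28%) HDAC3. Of 24 type II genes, 4 had KLF4 and 3 had HDAC3. Both type I shares were above those of all protein-coding genes (23.1% for KLF4 and 18.9% for HDAC3), and both type II shares were below them. KLF4 peaks numbered 5.88 per 100 kb (4.50 to 7.55) in the type I cluster and 6.29 (4.55 to 8.47) in the type II cluster, against 3.45 (2.01 to 5.53) in the Hox clusters. HDAC3 peaks numbered 5.78 (4.41 to 7.45) and 4.39 (2.96 to 6.26), against 4.47 (2.80 to 6.77).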

How the data were processed

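Peak lists of 1 HDAC3 and 1 KLF4 library from E18.5 epidermis were used; input entered only through the lists. The submitters' processing notes name GRCm38.p5, bcl2fastq, STAR and HOMER, without versions. Peaks of 185 bp were called, per the file headers, by HOMER in factor style for each library against the same input, with 4-fold enrichment over input and over the local 10 kb and a false discovery rate of 0.001. A broad enrichment can fail the local rule. The deposited tag signal had been put on one library size by the authors, and undoing this with the library total gave whole tags (within 0.06) for 100% of values under 10. The score and the fold ratio are the authors' values. The deposited p-value columns, computed by HOMER against input and local signal per the file headers, were not used. The focus ratio, a fraction of tags on the expected side of the peak centre deposited by the authors, was not used either. Peaks on contigs (16 HDAC3, 15 KLF4) were left out.

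Genes came from RefSeq on GRCm38.p6, whose gene table gives no strand; chromosome coordinates do not change between patch releases. Of 39 Hox genes, 22 matched the RefSeq promoter table. Peaks overlapped when they shared a base. Intervals are exact Poisson for tags and rates, conditional binomial for folds and Clopper-Pearson for shares, at 95% (scipy 1.17.1); they cover counting error only. Placing functions were tested on simulated data. Named were genes with gene-end peaks, the 5 highest peaks of each list inside and outside the clusters, and every overlapping pair; other lists gave up to 4 genes. Results at 1 member are not reported here, and it is left out of the map and the grid but not of the counts. Members and lists were chosen with earlier results of these data known. Alternatives changed windows, peaks, cluster bounds and overlap.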

Additional observations from a re-analysis of the deposited data

How the results depend on the processing

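Counts moved by more than 1.5 times under several choices. Within 5 kb, 20 Hox genes had HDAC3 (46.2% of protein-coding genes), 16 KLF4 (46%) and 10 both. Within 500 bp these were 5 (11.8% of protein-coding genes), 2 (15.8%) and 1. The share of all protein-coding genes with both was computed only at 1 kb (10.3%). The counts with both in this paragraph thus have no matching share and cannot be read as high or low. With annotated starts alone, known for 22 Hox genes, 5 had HDAC3 (15.9% of protein-coding genes), 1 KLF4 (21.3%) and 1 both; Hoxc4 and Hoxd11, with a start inside their spans, were not among the 8. Among peaks at least 8-fold over input, 1 gene had HDAC3 (6.76% of protein-coding genes), 2 KLF4 (10.98%) and 1 both; 8 HDAC3 and 8 KLF4 peaks lay inside the clusters, and 15 and 11 were nearest to a member. Among the 10000 highest-scored peaks of each list, the genes numbered 1, 1 and 1, the peaks inside 2 and 2, those nearest to a member 5 and 5, and the overlapping peaks 1 inside and 2 in all. Of all protein-coding genes, 6.19% had HDAC3 and 5.36% KLF4 at an end in that set. With all annotated genes competing, 24 HDAC3 and 13 KLF4 peaks were nearest to a member. Counting centres up to 1000 bp apart gave 5 overlapping HDAC3 peaks inside and 11 in all, without a whole-list share at that distance to compare. The other alternatives stayed within 1.5 times. Low tag numbers and a single library per antibody limit every peak. No paired analysis was possible because each antibody had 1 library and no test was run.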

Other observations

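Long noncoding RNA (lncRNA) genes within the Hox clusters carried KLF4 at their ends in more cases than the Hox genes themselves, without a test of the difference. Of 25 lncRNA genes in the clusters, 8 had a KLF4 peak within 1 kb of an end, against 16.1% of all lncRNA genes, and 4 had an HDAC3 peak, against 15.3%. Adjoining lncRNA genes among the 8 shared a KLF4 peak, so these genes are not 8 separate sites. Those with KLF4 included Hoxaas2 (113), 5730596B20Rik (40), Mira (41), Gm11538 (25), Hoxb5os (85) and Hoxd3os1 (132). These peaks are ones already described at the neighbouring Hox genes, and which gene they belong to was not tested. Some fall just outside the 1 kb window of a Hox gene, as the Hoxaas2 peak does at 1229 bp from Hoxa2, so the contrast depends on the window. Hotair, the lncRNA of the Hoxc cluster, had neither factor within 11577 bp of an end.

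Of the 6 microRNA genes in the clusters, 1 had a peak within 1 kb: Mir615, inside Hoxc5, where KLF4 had a peak of score 66 at a distance of 728 bp. Its mature products are shown with the seed in capitals (RefSeq, GRCm38.p6):
mmu-miR-615-5p: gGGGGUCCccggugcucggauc
mmu-miR-615-3p: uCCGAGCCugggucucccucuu
Mir10b, which lies inside Hoxd4, had its closest HDAC3 peak, of score 29, at 1704 bp and its closest KLF4 peak at 10184 bp.

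Of 13 protein-coding genes beside the clusters, 4 had an HDAC3 and 4 a KLF4 gene-end peak, beside 18.9% and 23.1% of all protein-coding genes. A list of 13 genes is too short to be set apart from these shares. Evx2, next to Hoxd13, had an HDAC3 gene-end peak of score 16 and was nearest to no KLF4 peak, and Evx1, beyond Hoxa13, had no gene-end peak. Cbx5, beyond Hoxc4, had both factors at its end (50 for HDAC3 and 123 for KLF4), as did Skap2 (37 and 63).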
